A study of Mus musculus with 12 samples.

Results

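The 84 genes described here were taken to cover families of glycosyltransferases and sulfotransferases, enzymes that build sugar chains on proteins and lipids and add sulfate. They were chosen by symbol. The families were the sialyltransferases (St3gal, St6gal, St8sia) and B3g and B4g, which are mostly galactose and N-acetylglucosamine transferases. Also taken were Galnt, Alg, Mgat, Man1 and Man2, Fut, Chst and Chsy, Ext, Extl, Hs and Ndst, Pig, Ogt, Pomt and Ugt. The chosen genes are 84 of the 8127 that could be named on the array. They are 41.8% of the 201 genes of the mouse reference whose symbols fit the same pattern. Chst8 and St3gal4, which also fit it, were left out and are described once near the end. The symbol pattern also takes in genes that encode no transferase. Among them are the mannosidases of the Man1 and Man2 families, which remove sugars. Others are Pigr, the receptor that carries immunoglobulins across epithelia, and the antisense genes Galnt6os and Man2c1os.

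The data come from granulosa cells, the hormone-producing cells around the egg in an ovarian follicle, cultured from mice 21 to 23 days old. Each culture was drawn from pooled ovaries, 14 to 20 in number, so no array stands for 1 animal. The 3 groups were given the vehicle PBS, activin A, a growth factor of the TGF-beta family, or activin A with its secreted binding protein and inhibitor follistatin, all for 24 h, and no dose, strain or purity of the cells was given in the sources used here. The experiment was repeated 4 times with 1 array per treatment each time, which gave 12 arrays and 4 per group.

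Sugar chains are assembled step by step. N-linked chains are built on a lipid carrier in the endoplasmic reticulum, moved to the protein, trimmed by mannosidases and then branched in the Golgi by the Mgat enzymes, while O-linked chains begin with a single sugar that the Galnt enzymes place. Galactose, fucose and sialic acid finish the chains, and sulfotransferases of the Chst, Hs and Ndst families sulfate proteoglycan chains. Pig enzymes make the lipid anchor that holds some proteins on the cell surface. Most Ugt enzymes attach glucuronic acid to steroids, bile pigments and drugs. Granulosa cells lay down proteoglycans in the follicle and carry receptors for glycoprotein hormones.

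Signals are on a log2-like scale from 6.75 to 16.16, and array medians lay between 7.17 and 7.18. Background was set at 7.31, the mean of the brightest control spot. Of the 84 members 44 (52.4%) had a mean signal above it, close to the 50.1% of all named genes. Differences were tested with limma over all 46091 probes and called at a Benjamini-Hochberg adjusted p under 0.05. The anti-Müllerian hormone receptor Amhr2, which marks granulosa cells, had group means of 12.7 with activin, 12.6 with PBS and 12.8 with both proteins. Of the 12 granulosa markers listed only Amhr2 and Fst had a named probe. Fst, the gene for follistatin itself, had group means of 10.40 with PBS, 12.92 with activin and 8.70 with both proteins, and was called in all 3 comparisons. In such bulk RNA, fewer cells of a type and less RNA per cell cannot be told apart.

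In cells given activin, 5 members rose against PBS and 1 fell. Alg1, Mgat4b, Galnt10, Pomt2 and Chst15 were the genes that rose, and Ogt was the gene that fell. These 6 members are 7.14% of the 84, and 5.00% of all named genes were called in this comparison. Calls for higher signal covered 2.85% of named genes and calls for lower signal 2.14%. With the experiment as a block, which compares arrays within each experiment, 10 members (11.9%) were called, against 10.6% of named genes. Of the 84 members 7 were higher and 3 lower. Of the 8127 named genes 440 (5.41%) were higher and 423 (5.20%) lower. Alg8, Man2b1, Pigl and St3gal6 were the 4 added. Without the block, the count was 3 when experiment 2 was left out and 2 when experiment 3 was. Calls over the 8127 named genes fell as well, from 406 to 223 and 188.

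Between activin alone and activin with follistatin, 10 members differed, which is 11.9% of the 84, the same share as the 11.9% of named genes. With activin alone 6 were higher (Alg8, Mgat4b, Galnt10, Pomt2, Chst1 and Chst15) and 4 lower (St3gal6, Ogt, Galnt1 and Galnt16). Among all named genes 5.50% were called higher and 6.42% lower. With the experiment block 18 members (21.4%) were called, against 18.9% of named genes. Of the 84 members 9 were higher and 9 lower. Of the 8127 named genes 727 (8.95%) were higher and 805 (9.91%) lower. Without the block, the count was 6 when experiment 2 was left out and 5 when experiment 3 was. Calls over the 8127 named genes fell as well, from 969 to 632 and 673.

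Activin with follistatin against PBS gave 0 calls among the members in limma, where 0.258% of named genes were called and 8 members had an unadjusted p under 0.05. The block gave 3 calls (3.57%), Extl3, Ogt and St3gal6, all higher than in PBS, against 2.17% of named genes and 1.21% called higher. The 3 comparisons share arrays, so their values are given side by side.

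**Figure D1:**
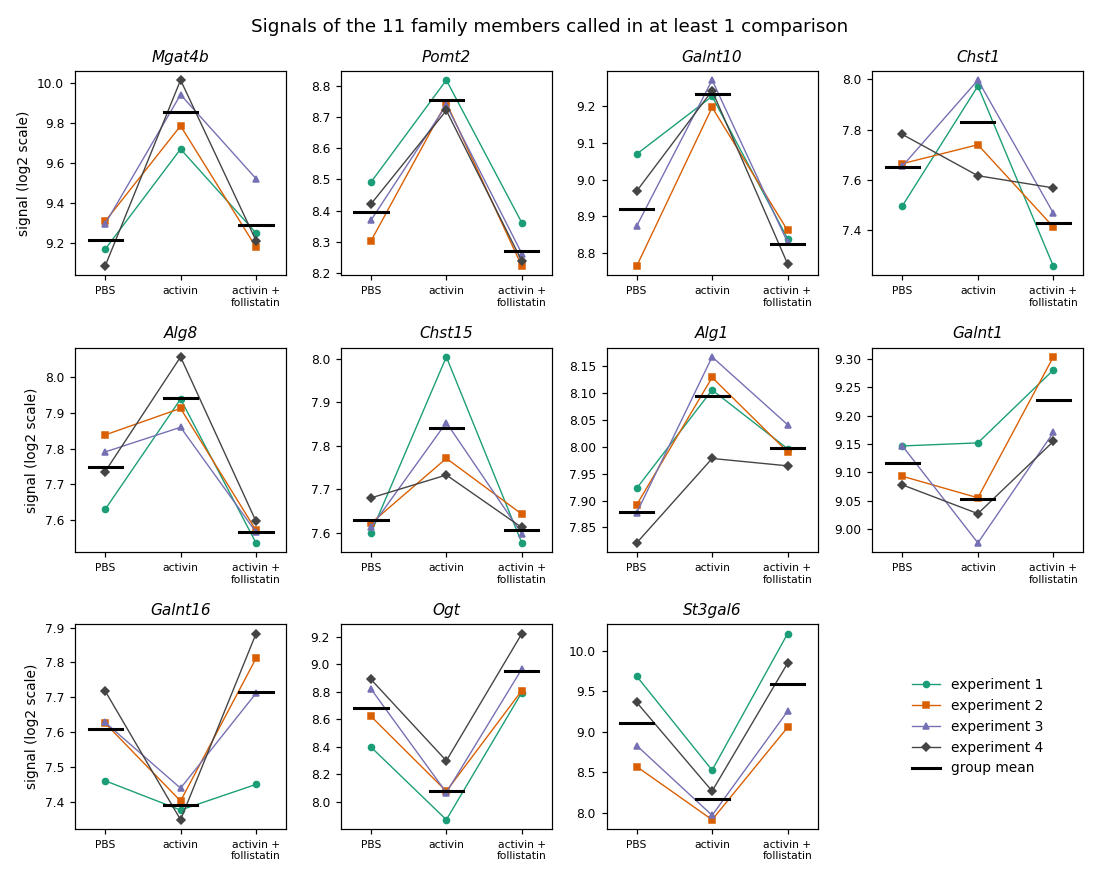
Signal (log2 scale, vertical axis) of the 11 members called in the fit without the block, with its own range in each panel, by treatment, with 1 line of points per experiment and the group mean as a black bar. St3gal6 and Ogt are lowest with activin alone, and Mgat4b, Pomt2 and Galnt10 are highest there.

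Among the 7 genes for sialic acid transfer, St3gal6, which places sialic acid on galactose at chain ends, showed the largest difference of any member. Its signal in experiments 1 to 4 was 9.69, 8.57, 8.83 and 9.37 with PBS. With activin it was 8.53, 7.91, 7.97 and 8.27, and with activin and follistatin 10.21, 9.06, 9.25 and 9.85. In every experiment the activin culture was lowest and the culture with follistatin highest, and the activin arrays did not overlap either other group. Activin alone minus activin with follistatin was -1.69, -1.14, -1.29 and -1.58 on the log2 scale in the 4 experiments, so the order of treatments was steady while the level was not. The mean difference was -1.42 (SE 0.29, limma adjusted p = 0.00901), or a level 2.68-fold lower with activin alone. Without experiment 3 its adjusted p was 0.0548 and without experiment 4 it was 0.0692. Against PBS, activin gave -0.94 (adjusted p = 0.136) and activin with follistatin gave 0.48 (adjusted p = 0.809). With the experiment block, which removes the differences in level between experiments, the SE was 0.08 and both differences passed, with limma adjusted p of 1.19e-04 and 0.0257.

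The other 6 sialyltransferase genes (St3gal1, St3gal2, St6galnac6, St8sia1, St8sia4 and St8sia6) gave no call in either fit. Over the whole group, differences between activin alone and activin with follistatin ran from -1.42 to 0.03.

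Ogt, the enzyme that puts single N-acetylglucosamine units on nuclear and cytoplasmic proteins, was the 1 member that fell with activin against PBS without the block. With PBS the signal of Ogt was 8.40, 8.62, 8.82 and 8.89 in experiments 1 to 4, and with activin 7.87, 8.08, 8.07 and 8.30. With activin and follistatin it was 8.80, 8.81, 8.97 and 9.22. All 4 activin arrays lay below all 8 others. Ogt was 0.60 lower with activin than with PBS (difference -0.60, SE 0.13, limma adjusted p = 0.0248, and 7.01e-05 with the block). The first of these calls was lost without the activin array of experiment 1, 2 or 3 or the PBS array of experiment 3 or 4, with adjusted p up to 0.0824, and without the whole of experiment 2 or 3, with adjusted p up to 0.222. Against activin with follistatin the difference was -0.87 (adjusted p = 0.00110), or 1.83-fold lower with activin alone, and this call held without any single array or experiment. Activin with follistatin exceeded PBS by 0.26, which passed only with the block (adjusted p = 0.0314).

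Pomt2, which acts in O-mannosylation of dystroglycan, moved the opposite way and had the smallest p of any member in the fit without the block. Its signal was 8.49, 8.30, 8.37 and 8.42 with PBS, 8.82, 8.74, 8.74 and 8.72 with activin, and 8.36, 8.22, 8.26 and 8.24 with activin and follistatin. The 4 activin arrays were the 4 highest. Activin raised Pomt2 by 0.36 over PBS (SE 0.04, limma adjusted p = 0.000815) and by 0.48 over activin with follistatin (adjusted p = 3.67e-05), and both calls held without any single array or experiment. Dag1, which encodes the dystroglycan protein itself and is no member, had group means of 13.66 with PBS, 13.97 with activin and 12.78 with activin and follistatin, and differed by 1.19 between the last 2 (SE 0.21, adjusted p = 0.00475).

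Of the 15 genes of N-linked chain assembly and trimming, Alg1 and Mgat4b rose against PBS, and Alg8 and Mgat4b were higher with activin alone than with follistatin added. Mgat4b, which adds a branching N-acetylglucosamine in the Golgi, gave 9.17, 9.31, 9.29 and 9.08 with PBS in experiments 1 to 4. With activin it gave 9.67, 9.79, 9.94 and 10.02, and with activin and follistatin 9.25, 9.18, 9.52 and 9.21. The PBS arrays and those with follistatin overlapped, and all activin arrays were higher. The rise over PBS was 0.64 (SE 0.09, limma adjusted p = 0.00242), or 1.56-fold, and the difference from activin with follistatin was 0.56 (adjusted p = 0.00220). Both Mgat4b calls held without any single array or experiment. Differences of the other Mgat genes (Mgat1, Mgat4c, Mgat5 and Mgat5b) passed in neither fit.

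Alg8 adds the second of the glucose units that cap the lipid-linked precursor. Its signals were low, at 7.63, 7.84, 7.79 and 7.74 with PBS, 7.94, 7.91, 7.86 and 8.06 with activin and 7.54, 7.57, 7.57 and 7.60 with activin and follistatin. The 3 groups did not overlap, with activin highest and the cultures with follistatin lowest. Alg8 was 0.37 higher with activin alone than with follistatin added (SE 0.05, limma adjusted p = 0.000483). Against PBS the 0.19 of Alg8 missed the threshold (adjusted p = 0.0618) and passed with the block (0.0381). It also passed among probes above background alone, or on leaving out the activin array of experiment 3 or the PBS array of experiment 2.

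Alg1, which adds the first mannose to the same precursor, was measured at 7.92, 7.89, 7.88 and 7.82 with PBS and at 8.11, 8.13, 8.17 and 7.98 with activin. With activin and follistatin it stood between, at 8.0, 7.99, 8.04 and 7.96. The PBS arrays overlapped neither other group. Alg1 rose by 0.22 with activin over PBS (SE 0.04, limma adjusted p = 0.0117), a call that was lost without experiment 1, 2 or 3 (adjusted p up to 0.120). Between activin alone and activin with follistatin it differed by 0.10 (adjusted p = 0.230), which passed only when the activin array of experiment 4 was left out. Alg1 thus lacked the call in the comparison with follistatin that Mgat4b had, and whether these genes differ from each other in that respect was not tested.

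Man2b1, a mannosidase of the lysosome, was called only with the block. Its signal was 10.47, 10.97, 10.77 and 10.86 with PBS, 10.69, 11.38, 11.34 and 11.23 with activin and 10.64, 10.77, 10.84 and 10.71 with activin and follistatin. Activin was higher than PBS in all 4 experiments, with a mean difference of 0.39 (limma adjusted p = 0.260, and 0.0183 with the block), and the groups overlapped. Against activin with follistatin the difference was 0.42 (adjusted p = 0.135, and 0.00688 with the block). Without the activin array of experiment 1, or without all of experiment 1, both calls were also made without the block. Alg14, which acts early on the same lipid-linked precursor, was 0.27 higher with activin alone than with follistatin added, and passed with the block only (adjusted p = 0.00822).

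**Figure D2:**
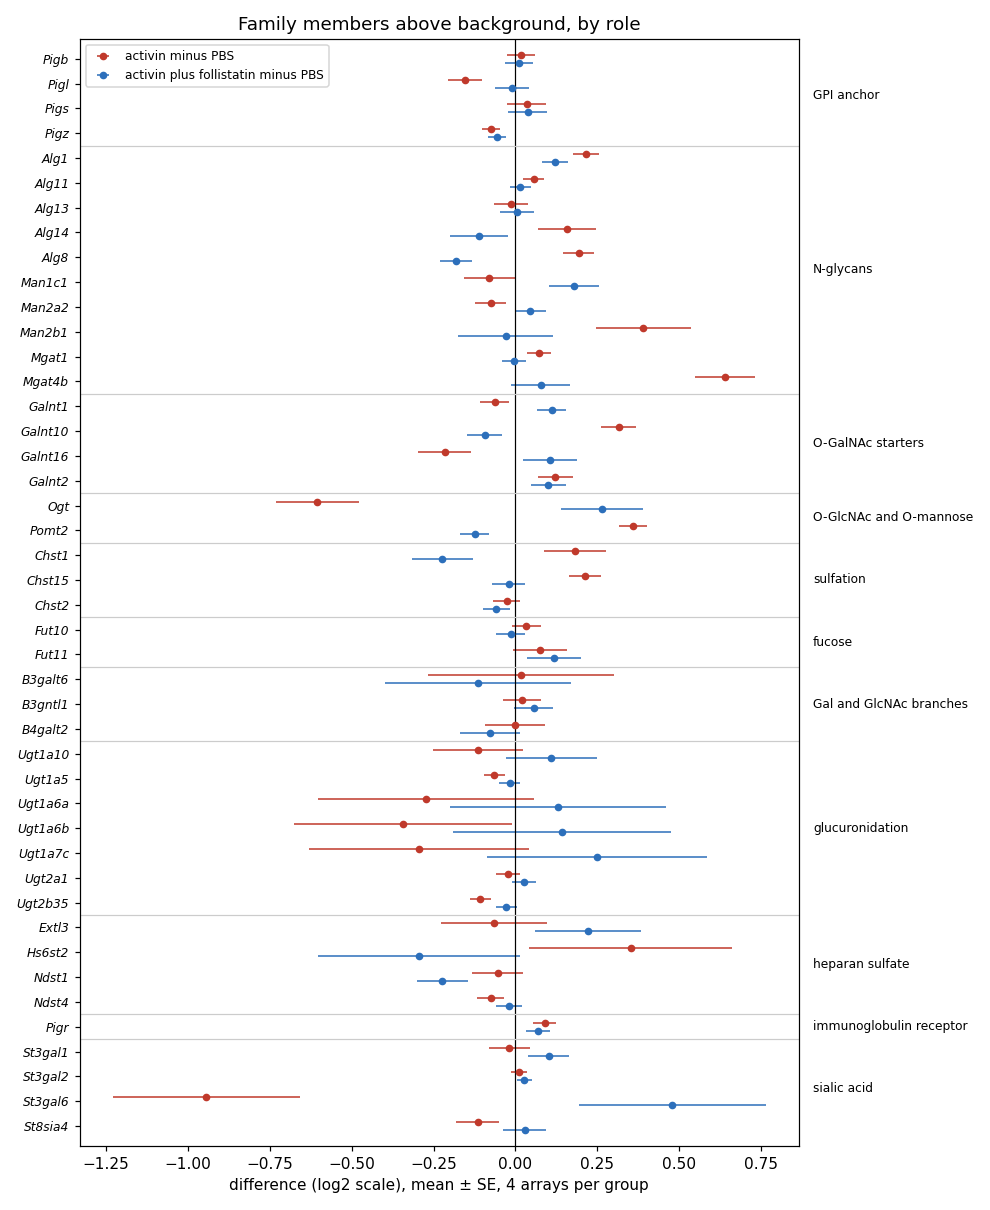
Difference from PBS on the log2 scale (horizontal axis) for the 44 members above background, grouped by role, in red for activin and in blue for activin plus follistatin, as the mean with the SE of the fit (4 arrays per group). Most members lie near 0, and with activin St3gal6, at -0.94, lies furthest to the left and Mgat4b, at 0.64, furthest to the right.

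Of the 7 genes for the enzymes that start mucin-type O-linked chains, Galnt10 went up and 2 others were lower with activin alone than with follistatin added. Galnt10 gave 9.07, 8.76, 8.87 and 8.97 with PBS, 9.23, 9.20, 9.27 and 9.24 with activin and 8.84, 8.86, 8.83 and 8.77 with activin and follistatin. The activin arrays were higher than all others and closer together than those of PBS. Galnt10 rose by 0.32 over PBS (SE 0.05, limma adjusted p = 0.00772, lost without experiment 3 at 0.120), and the difference from activin with follistatin was 0.41 (adjusted p = 5.19e-04).

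Galnt16 was dim, at 7.46, 7.63, 7.63 and 7.72 with PBS, 7.38, 7.40, 7.44 and 7.35 with activin and 7.45, 7.81, 7.71 and 7.88 with activin and follistatin. The activin arrays were below all others, if only by a small step in experiment 1. Galnt16 was 0.32 lower with activin alone than with follistatin added (difference -0.32, SE 0.08, limma adjusted p = 0.0341). That call was lost on leaving out any of 8 arrays: activin in each experiment, activin with follistatin in experiments 2, 3 and 4, and PBS in experiment 3, with adjusted p up to 0.105. It was also lost without experiment 2, 3 or 4. Against PBS its -0.22 passed only when experiment 1 was left out (adjusted p = 0.276 with all arrays).

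Galnt1 gave 9.15, 9.09, 9.15 and 9.08 with PBS, 9.15, 9.06, 8.98 and 9.03 with activin and 9.28, 9.30, 9.17 and 9.15 with activin and follistatin. Its activin and PBS arrays overlapped, and its activin arrays did not overlap those with follistatin. Galnt1 was 0.17 lower with activin alone (difference -0.17, SE 0.04, limma adjusted p = 0.0325). This call was lost without the activin array of experiment 2, 3 or 4 or that with both proteins in experiment 1 or 2, with adjusted p up to 0.0990, and without any 1 of the 4 experiments. Dimmer probes for Galnt1 gave differences of -0.12 and 0.02, which were not called.

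Some markers of theca and stroma, the cells that lie outside the follicle wall, moved in the same direction as the 4 members that were lower with activin alone. Of 8 such markers 6 had a named probe and 4 were above background. The summed signal of the 6 (log2 of the sum) was 14.4 to 15.0 with PBS and 12.4 to 13.2 with activin. With activin and follistatin it was 14.6 to 15.3. Most of this sum is Aldh1a1, which ran from 14.15 to 14.92, 12.08 to 13.06 and 14.51 to 15.26 in these groups. Aldh1a1, Col3a1 and Dcn were lower with activin alone than with follistatin added, while Col1a1, which was above background, was 0.06 higher and not called (limma adjusted p = 0.776), and Col1a2 and Ptch1 stayed at background. Dcn differed between the experiments with PBS, at 9.93, 8.72, 8.61 and 11. It was higher in experiments 1 and 4, the experiments in which St3gal6 was higher too. The other markers above background did not follow this order with PBS. Aldh1a1 and Col3a1 were lowest in experiment 4, at 14.15 and 8.34, and Col1a1 was lowest in experiment 1, at 7.33. The part of these cells in the results for St3gal6, Ogt, Galnt1 and Galnt16 was not tested. The 3 macrophage markers with a probe (Ptprc, Cd68 and Csf1r) were at background in all groups. Of the 2 endothelial markers, Robo4 was 0.80 lower with activin alone than with follistatin added and Pecam1 differed by -0.05 (limma adjusted p = 0.643). Of the 4 of surface epithelium none was called.

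Of the 5 genes of the Chst and Chsy families, Chst1 and Chst15 were called. Chst15, which makes a highly sulfated form of chondroitin sulfate, gave 7.60, 7.62, 7.61 and 7.68 with PBS, 8.0, 7.77, 7.85 and 7.73 with activin and 7.58, 7.64, 7.60 and 7.61 with activin and follistatin. Activin arrays were above all others, by the most in experiment 1. Chst15 rose by 0.21 over PBS (SE 0.05, limma adjusted p = 0.0437), a call lost without any 1 of 9 arrays (all 4 PBS arrays, all 4 arrays of activin with follistatin and the activin array of experiment 3, adjusted p up to 0.119), without experiment 1, 2 or 3 (up to 0.291), and after quantile normalization (0.0581). Against activin with follistatin the difference was 0.23 (adjusted p = 0.0130), lost without experiment 2 or 3 (0.0508 and 0.122).

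Chst1, which sulfates galactose in keratan sulfate, gave 7.50, 7.66, 7.66 and 7.78 with PBS, 7.97, 7.74, 8.0 and 7.62 with activin and 7.26, 7.41, 7.47 and 7.57 with activin and follistatin. The activin arrays were above those with follistatin in each experiment, by 0.72, 0.33, 0.53 and 0.05, and overlapped those of PBS. Chst1 was 0.40 higher with activin alone than with follistatin added (SE 0.09, limma adjusted p = 0.0204). The call was lost without the activin array of experiment 1 or 3 or that with both proteins in experiment 1 or 2 (adjusted p up to 0.0635) and without experiment 1, 2 or 3 (up to 0.145).

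None of the 8 heparan sulfate genes was called without the block. Extl3, which helps start the heparan sulfate chain, was an example of a gene whose level shifted between experiments while its response was even. Its signal was 9.38, 9.60, 9.44 and 9.98 with PBS, 9.38, 9.55, 9.35 and 9.84 with activin and 9.59, 9.87, 9.63 and 10.19 with activin and follistatin. The cultures with follistatin were highest in each experiment, by 0.21, 0.27, 0.19 and 0.21 over PBS, although the groups overlapped. The mean of these differences was 0.22, with a limma adjusted p of 0.867 without the block (SE 0.16) and 0.00902 with it (SE 0.03). Activin alone differed from activin with follistatin by -0.29 (adjusted p = 0.466, and 1.67e-04 with the block).

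Hs6st2, which sulfates heparan sulfate, gave 8.36, 8.28, 8.87 and 7.92 with PBS, 9.25, 8.41, 9.33 and 7.84 with activin and 8.13, 7.89, 8.41 and 7.82 with activin and follistatin. The differences between activin alone and activin with follistatin were 1.12, 0.52, 0.92 and 0.02, wide apart in experiments 1 and 3 and almost absent in experiment 4. Their mean was 0.65 (SE 0.31, limma adjusted p = 0.344, and 0.0212 with the block). Ndst1, which starts sulfation of the chain, passed in no comparison and had a difference of 0.17 there (adjusted p = 0.321).

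The 14 Ugt genes gave no call without the block, and 7 were above background. Ugt1a6a gave 8.53, 9.47, 9.61 and 8.89 with PBS, 8.14, 9.19, 9.31 and 8.77 with activin and 8.74, 9.37, 9.98 and 8.94 with activin and follistatin. Experiment 1 was lowest and experiment 3 highest in every group. The activin array was lower than that with follistatin in all 4 experiments, and the mean difference of -0.40 passed only with the block (limma adjusted p = 0.682, and 0.0110 with it). Ugt1a7c (-0.54, adjusted p with the block 0.0434) and Ugt1a10 (-0.22, 0.0407) passed the same way. Their dimmer probes, all below background, gave -0.02 and 0.02 for Ugt1a7c and 0.02 and 0.05 for Ugt1a10, with no call in either fit. For Ugt1a6b the brightest probe (-0.49) was called in neither fit. Of its dimmer probes 1 (-0.18) passed with the block and the other (-0.09) did not. The mouse Ugt1a genes share their last exons, so these probes may read shared sequence and the genes are uncertain as separate measurements.

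**Figure D3:**
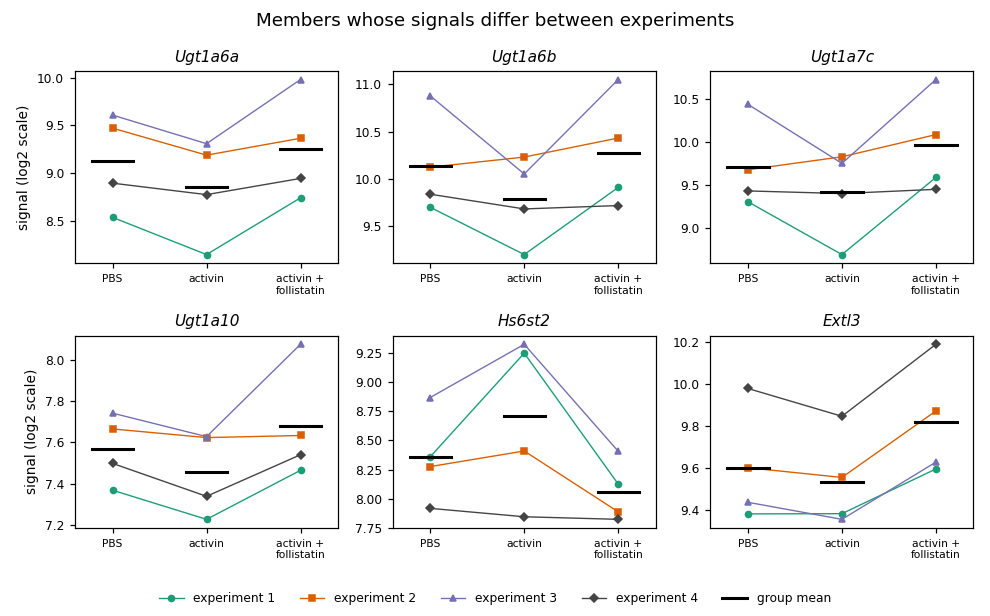
Signal (log2 scale, vertical axis, with its own range in each panel) of Ugt1a6a, Ugt1a6b, Ugt1a7c, Ugt1a10, Hs6st2 and Extl3 by treatment, with 1 line per experiment and a black bar for the group mean. For Ugt1a6a experiment 1 is lowest and experiment 3 highest throughout, and for Extl3 all 4 lines rise from activin to activin with follistatin.

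The means of the experiments differed by 1.16 for Ugt1a6a, 1.11 for Ugt1a7c, 1.06 for Ugt1a6b and 1.01 for Hs6st2, the 4 members in which this range was over 1. For St3gal6 it was 0.96, against a range of 1.42 between the treatments. The range between experiments was larger than that between treatments in 20 of the 44 members above background. The range between experiments spans more means, each of fewer arrays, so noise alone tends to make it the larger. The same count was not made for all named genes, so whether this share is particular to the members was not tested.

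The remaining roles gave no call without the block. Of 9 genes for the lipid anchor, Pigl, which acts in an early step, was 0.15 lower with activin than with PBS and passed only with the block (limma adjusted p = 0.194, and 0.0323 with it). Its signal was 8.75, 8.89, 8.87 and 8.80 with PBS and 8.59, 8.70, 8.66 and 8.75 with activin, lower in all 4 experiments with groups that overlapped narrowly. Between activin alone and activin with follistatin the difference was -0.14 (adjusted p = 0.157, and 0.0272 with the block). The 11 B3g and B4g genes spanned -0.04 to 0.13 between activin alone and activin with follistatin, and only 3 were above background. B3gat1, which transfers glucuronic acid to glycoproteins of the nervous system, differed by 0.06 (adjusted p = 0.678). Fut1, a fucosyltransferase and 1 of 3 measured, differed by -0.07 (adjusted p = 0.291) at a signal below background. Ugt2b35 differed by -0.08, Pigr by 0.02 and the antisense gene Galnt6os by 0.08, and none passed. Galnt6os was also 0.11 higher with activin than with PBS, at a signal below background, and passed (adjusted p = 0.0697 with all arrays) only on omission of experiment 4's PBS array.

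**Figure D4:**
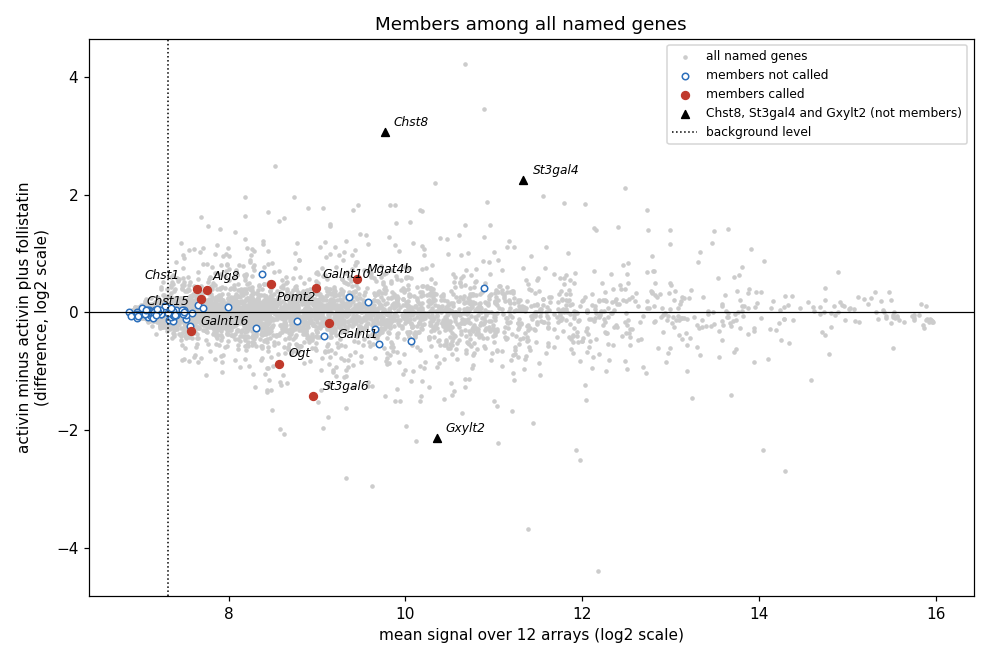
Difference between activin alone and activin with follistatin (log2 scale, vertical axis) against the mean signal over 12 arrays (log2 scale, horizontal axis) for all named genes in grey, members not called as open points, called members as filled points and 3 genes that are no members as triangles. The called members other than St3gal6 and Ogt lie between -0.32 and 0.56, and the dotted line is the background level.

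The members moved little as a body. Their median difference was near 0 in each comparison (-0.0040 for activin minus PBS, 0.012 for activin with follistatin minus PBS and -0.0047 for activin minus activin with follistatin). For all named genes these medians were 0.0018, 0.0070 and -0.0020. Only 1 member, St3gal6, differed by more than 1 on the log2 scale in any comparison. The groups of activin and PBS did not overlap in 17 members (20.2%, against 10.3% of named genes), and those of activin alone and activin with follistatin in 12 (14.3%, against 15.9%). For activin with follistatin and PBS it was 4 members (4.76%, against 5.43%). Of the 44 members above background 13.6% were called for activin against PBS, where 9.69% of named genes above background were, and 22.7% for activin against activin with follistatin, against 22.8%. The median SE of a difference was 0.06 for these members.

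Genes left out of the member list moved further. Chst8, which sulfates the sugar chains of glycoprotein hormones, was 2.02 higher with activin than with PBS and 3.07 higher than with activin and follistatin (SE 0.12). St3gal4, another sialyltransferase, was 0.96 and 2.26 higher (SE 0.09), the opposite direction to St3gal6. Gxylt2, which adds xylose to glucose on Notch proteins, was lower by 1.75 and 2.14 (differences -1.75 and -2.14, SE 0.21). Because these genes were picked for their changes in earlier work on the same arrays, their values are a description.

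A wider list of 158 other genes of glycan supply, transport, attachment and breakdown held 66 with a named probe, 45 of them above background. Gxylt2 and the stroma marker Dcn are among the 66. With activin against PBS 6 were higher and 2 lower (12.1% of 66, against 5.00% of all named genes and 9.69% of those above background). Between activin alone and activin with follistatin 11 were higher and 6 lower (25.8%, against 11.9% and 22.8%). The block gave 15 calls (22.7%, against 10.6% of named genes and 20.8% of those above background) and 22 (33.3%, against 18.9% and 36.2%). All shares of the list are of the 66, of which only 45 were above background. They are therefore not a like measure to the shares of named genes above background. Gfpt2 acts at the start of the pathway to the sugar donor that Ogt and the Mgat enzymes use. Its group means were 9.40 with PBS, 10.42 with activin and 8.59 with activin and follistatin. Without the block Gfpt2 was the 1 gene of this list that also differed between activin with follistatin and PBS (difference -0.80, SE 0.12, limma adjusted p = 0.0272). With the block 4 did (6.06% of 66, against 2.17% of named genes and 4.3% of those above background). Of these, Gfpt2, Dag1 and Poglut1 were lower than with PBS and Cemip higher.

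Sdc1, a heparan sulfate proteoglycan of the cell surface, was 1.32 higher with activin than with PBS and 1.70 higher than with activin and follistatin (SE 0.26, limma adjusted p = 0.0192 and 0.00164). Its activin array of experiment 3, at 10.4, stood above the other activin arrays, which lay from 8.83 to 9.44. Naglu, which breaks down heparan sulfate in the lysosome, was 0.88 and 0.99 higher (adjusted p = 0.0130 and 0.00250), and Dad1, a subunit of the enzyme that moves N-linked chains onto proteins, 0.51 and 0.67 higher (adjusted p = 0.00450 and 2.61e-04). Hyal1, a hyaluronidase, was 0.24 and 0.36 higher (adjusted p = 0.0318 and 0.00121). Cemip, which takes part in hyaluronan breakdown, had means of 7.12 with activin alone and 7.37 with follistatin added, below and little above background (difference -0.26).

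Activin acts through SMAD proteins, which bind the short motif CAGAC, so promoter windows of the members were searched for it on both strands. RefSeq windows on GRCm38.p6, each of 300 bases around a transcript's start, were found for 65 of the 84 genes. The motif was in 37 of their 82 windows (45.1%) and in 49.6% of all 32851 windows. The 9 called members with a window had 14 windows, of which 8 held it. These windows belong to 6 genes (Alg1, Alg8, Chst1, Chst15, Galnt16 and Pomt2). Windows of 1 gene can overlap and hold the same site, as those of Chst15 and Galnt16 do. AAGGTCA, the binding motif of nuclear receptors such as NR5A proteins, was in 5 of the 82 windows (6.10%, against 4.72% of all) and in 0 windows of the called members. Shown here are 2 genes that rose with activin and 2 that were lower, in the direction of transcription with CAGAC or its reverse complement in capitals: Pomt2 (chr12:87147853-87148152, minus strand), Alg1 (chr16:5233371-5233670, plus strand), Ogt (chrX:101639801-101640100, plus strand) and St3gal6 (chr16:58523377-58523676, minus strand).
Pomt2: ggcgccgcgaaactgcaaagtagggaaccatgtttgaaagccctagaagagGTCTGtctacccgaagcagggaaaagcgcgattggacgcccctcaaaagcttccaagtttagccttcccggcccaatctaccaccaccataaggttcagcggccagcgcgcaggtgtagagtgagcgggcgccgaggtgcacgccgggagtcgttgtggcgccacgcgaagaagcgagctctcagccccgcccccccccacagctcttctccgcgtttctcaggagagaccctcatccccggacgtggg
Alg1: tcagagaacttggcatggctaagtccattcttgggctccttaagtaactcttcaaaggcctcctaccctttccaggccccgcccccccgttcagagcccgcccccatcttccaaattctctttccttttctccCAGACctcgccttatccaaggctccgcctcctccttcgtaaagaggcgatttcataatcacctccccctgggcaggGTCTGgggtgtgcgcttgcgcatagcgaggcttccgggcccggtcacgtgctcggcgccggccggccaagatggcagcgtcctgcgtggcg
Ogt: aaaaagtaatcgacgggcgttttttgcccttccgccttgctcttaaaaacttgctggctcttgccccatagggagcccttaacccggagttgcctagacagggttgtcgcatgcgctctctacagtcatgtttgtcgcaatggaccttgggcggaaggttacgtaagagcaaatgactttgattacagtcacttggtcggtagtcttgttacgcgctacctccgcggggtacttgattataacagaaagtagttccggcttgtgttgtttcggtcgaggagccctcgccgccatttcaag
St3gal6: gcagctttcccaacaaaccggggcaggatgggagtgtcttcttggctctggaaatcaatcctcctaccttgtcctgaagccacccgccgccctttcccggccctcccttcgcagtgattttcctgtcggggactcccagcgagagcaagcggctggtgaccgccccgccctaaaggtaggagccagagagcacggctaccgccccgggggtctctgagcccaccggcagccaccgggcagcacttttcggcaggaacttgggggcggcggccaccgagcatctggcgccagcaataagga
The window of Pomt2 holds the motif in 1 place and that of Alg1 in 2, while those of Ogt and St3gal6 hold none. The called members did not divide this way by direction. The window of Galnt10, which rose, holds none. Galnt16 was lower with activin alone than with follistatin added, and 2 of its 3 windows hold the motif in 2 places each. Those 2 windows overlap and share 1 of these sites. A match in such a window is a description of the letters, and for a motif of 5 letters it is common.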

How the data were processed

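RNA (100 ng per sample, amplified with T7 polymerase and labelled with Cy3, per the labels) was hybridised to 12 Illumina Sentrix Mouse-6 arrays. The deposited values are on a log2-like scale and had been normalized between arrays by the authors. The submitters' processing notes name lumi 1.2.0, and the method and genome build are not given in the sources used here. Plain log2 was assumed for fold changes, and the table holds no detection calls.

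Of 46116 probes 25 control spots were left out. Probes carry no gene names, so the number in an identifier was read as an Entrez gene number and looked up in RefSeq's mouse gene table (GRCm38.p6). This named 9832 probes of 8127 genes, and the brightest probe on average stood for a gene. The members have 106 probes, and 17 have several.

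All 12 arrays entered 1 limma 3.58.1 fit (R 4.3.3) of 3 group means on the deposited values, 2-sided, with Benjamini-Hochberg adjustment over 46091 probes, and the code was tested on simulated data. A p in the text is from this fit unless the block is named. The labels number the arrays within each treatment, and arrays of equal number were taken as 1 experiment. After group means were removed, arrays of the same experiment correlated at 0.332 to 0.801 over probes above background. Pairs that differed in both experiment and treatment correlated at -0.632 to 0.406. These ranges overlap in part, and the pairing of the arrays remains a reading of the numbers. The fit without the block does not use this pairing. The fit with the experiment as a block is printed beside a result where it changes the call.

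Members named were those called without the block, those called against PBS with it, the member with the smallest p per role for activin minus activin plus follistatin, and the 8 called genes of the wider list with the smallest p. Other genes with values were chosen after their values were seen. The members, roles and lists were chosen with earlier results of these data known. The number of arrays limits the precision. Alternatives were the block, quantile normalization, median centring, only probes above background, array weights, any probe of a gene, and leaving out an array or an experiment.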

Additional observations from a re-analysis of the deposited data

Results flagged for a closer look

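Among the groups of 4 arrays of the 20 members chosen to be named, 60 groups in all, 3 held an array that lay far from the other arrays of its group relative to the group's range. Chance alone marks about 1 in 20 groups by this measure. B3gat1 was 7.38 with activin in experiment 2, against 7.20 to 7.22 in the other activin arrays, which is near background. Ndst1 was 9.63 with activin and follistatin in experiment 3, against 9.37 to 9.41 in the other experiments. Ugt2b35 was 7.42 with PBS in experiment 4, against 7.38 to 7.39 in the others. None of these genes was called in any comparison in either fit.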

How the results depend on the processing

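With the experiment as a block, 10 members were called for activin against PBS, 3 for activin with follistatin against PBS and 18 for activin against activin with follistatin, where the fit without it gave 6, 0 and 10. All calls without the block were also made with it, and beyond those the report names it changed no other call among the named members. On leaving out single arrays or whole experiments the counts ranged from 2 to 6, stayed at 0, and ranged from 5 to 10. Over the 8127 named genes they ranged from 188 to 404, 7 to 32 and 632 to 963, where all arrays gave 406, 21 and 969. Quantile normalization gave 5, 0 and 11 calls, median centring 6, 0 and 10, probes above background 7, 0 and 11, and array weights and any probe of a gene 6, 0 and 10 each. No difference of a named member that was called changed its direction under these alternatives. Over the named members' differences, 55 repeats lost a call and 20 gained one, while 1176 kept their side of the threshold. For dim genes such as Galnt16, Chst1, Chst15 and Alg8, signals little above background limit how much of a change the arrays can show.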
